A study of Mus musculus with 45 samples.

Results

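Obox genes (oocyte-specific homeobox genes) were read out in 45 single mouse oocytes. The family was taken as every protein-coding row of the count table whose symbol begins with Obox, which gave 7 genes (Obox1, Obox2, Obox3, Obox5, Obox6, Obox7 and Obox8) of 55357 rows, 21833 of them protein-coding. Obox1, Obox2, Obox5 and Obox7 were detected in every oocyte, and Obox3, Obox6 and Obox8 had next to no reads. The study placed single oocytes into follicles emptied of their own oocyte (reconstituted chimeric follicles, RCF), cultured them, and sequenced each oocyte as a library of its own. The chimeric groups were YY (young oocyte, young somatic cells, n = 11), AY (aged oocyte, young somatic cells, n = 6) and AA (both aged, n = 12). As controls, 8 oocytes of young mice were cultured in vitro (in vitro young) and 8 were taken without culture (in vivo young). Strain, the ages in months, the animal behind each oocyte and the meiotic stage are not given in the sources used here, and no group carries an allele or agent that the labels name. The p-values below therefore measure only the spread between these oocytes, some of which may share an animal.

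Obox proteins are transcription factors with a homeodomain, a DNA-binding fold, related to that of the photoreceptor regulator Crx. In the mouse, Obox1, Obox2, Obox5 and Obox7 are known as maternal members, whose transcripts are stored in the growing oocyte, while Obox3 is known as a member switched on in the embryo. Maternal and zygotic Obox factors are known to act redundantly in starting transcription from the embryonic genome, with RNA polymerase II as the machinery they help to place.

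The 7 genes lie together on chromosome 7, from 14065361 to 15573604 in the coordinates of the count table (build mm39), a stretch of 1508 kb. From left to right they are Obox8, Obox7, Obox2, Obox1, Obox3, Obox5 and Obox6. The annotated span of Obox1 (15122873 to 15290792) covers 9599 bases of the span of Obox2 (15122646 to 15132471) and 77043 bases of that of Obox3 (15213750 to 15373828). In the GENCODE M21 annotation of the older build GRCm38, the exons of Obox1 and Obox2 shared only 59 bases.

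RefSeq promoter windows (GRCm38.p6, from 250 bases before to 50 bases after the annotated start) were found for 5 of the 7 genes. They are shown because the windows of the 4 detected genes and that of Obox3, which had next to no reads, are alike: all 5 hold 1 run of 25 identical bases that occurs in no other window of the 32851 in the table. The run is in capitals in the stretches below, as is the letter string TATATAA where the stretch holds it.
Obox1 (chr7:15547099-15547266, plus strand): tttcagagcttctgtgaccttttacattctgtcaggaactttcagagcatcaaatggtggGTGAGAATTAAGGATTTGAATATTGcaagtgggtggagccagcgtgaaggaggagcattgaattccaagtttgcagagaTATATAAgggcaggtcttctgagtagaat
Obox2 (chr7:15388790-15388879, plus strand): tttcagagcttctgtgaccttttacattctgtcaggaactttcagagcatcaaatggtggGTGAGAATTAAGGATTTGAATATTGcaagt
Obox5 (chr7:15750200-15750379, plus strand): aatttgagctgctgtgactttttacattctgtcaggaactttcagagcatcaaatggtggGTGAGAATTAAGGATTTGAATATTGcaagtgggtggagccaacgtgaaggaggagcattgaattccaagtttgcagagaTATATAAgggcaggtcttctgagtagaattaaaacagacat
Obox7 (chr7:14659564-14659717, plus strand): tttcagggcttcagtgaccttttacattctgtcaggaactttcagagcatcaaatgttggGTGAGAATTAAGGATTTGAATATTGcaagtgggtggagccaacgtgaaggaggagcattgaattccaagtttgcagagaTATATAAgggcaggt
Obox3 (chr7:15639768-15639946, minus strand): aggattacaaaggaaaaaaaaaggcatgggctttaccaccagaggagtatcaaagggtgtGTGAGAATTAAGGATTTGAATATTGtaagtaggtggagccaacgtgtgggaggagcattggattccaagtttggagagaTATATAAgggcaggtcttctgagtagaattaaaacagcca

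The shared run begins 98 bases before the annotated start of Obox1, 110 before that of Obox5, 84 before that of Obox7 and 109 before that of Obox3. In Obox2 it begins 1 base before the annotated start. Across the windows of the 4 detected genes the identical run extends to 44 bases. Obox1 and Obox2 were identical over all 203 bases that their windows have in common, and Obox5 and Obox7 at 97.8% of their aligned bases. Obox3 matched Obox1 at 93.3% of the aligned bases. TATATAA, searched on both strands, was in the windows of Obox1, Obox3, Obox5 and Obox7, beginning 19, 30, 31 and 5 bases before the start, and in 3.24% of all promoter windows. It was not in the window of Obox2, which ends 50 bases past its annotated start. GGATTA, the core letters bound by Crx-like homeodomains, was in the window of Obox3 alone of the 5 (7.06% of all windows). TAATTA and TAATTG, letters bound by many homeodomains, were in none of the 5 (5.29% and 8.00% of all windows). The E-box letters CANNTG were in 4 of the 5 windows, all but that of Obox3, and in 72.3% of all windows. A match of letters describes the window and is not a binding site.

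The transcripts are also near-copies, which matters for every count below. The stretches that follow are coding bases 119 to 213 of the GENCODE M21 transcripts (GRCm38) of the 4 detected genes, and the 35 bases in capitals are identical in all 4.
Obox1: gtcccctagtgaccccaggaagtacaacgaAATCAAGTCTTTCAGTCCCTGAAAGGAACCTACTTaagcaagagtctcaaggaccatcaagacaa
Obox2: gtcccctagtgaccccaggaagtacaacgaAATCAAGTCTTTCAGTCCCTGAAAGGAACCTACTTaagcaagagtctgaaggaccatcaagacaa
Obox5: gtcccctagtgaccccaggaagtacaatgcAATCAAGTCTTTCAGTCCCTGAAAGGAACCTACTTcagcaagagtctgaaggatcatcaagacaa
Obox7: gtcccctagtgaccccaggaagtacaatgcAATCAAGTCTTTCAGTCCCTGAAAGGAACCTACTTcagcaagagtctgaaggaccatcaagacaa

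Obox1 and Obox2 were identical at 98.5% of 453 aligned coding bases, with 1 identical run of 427 bases over the whole transcripts. Obox5 and Obox7 were identical at 96.0% of 654 coding bases. Obox3 matched the 4 detected genes at 93.1% to 94.0%, Obox6 at 76.6% to 80.1% and Obox8 at 64.4% to 68.6%. Of all 50-base windows of the Obox2 transcript, 63.0% also occur in another gene, and of the Obox1 transcript 59.3%. The share was 20.2% for Obox7, 13.0% for Obox5, 32.7% for Obox3, 5.02% for Obox6 and 0% for Obox8. Windows of 150 bases from Obox5 or Obox7 occurred in no other gene, whereas 32.7% of those from Obox2 and 31.4% of those from Obox1 did. Read length, strand use and the treatment of reads with several matches are not given in the sources used here. How reads from the shared stretches were divided between Obox1 and Obox2, or dropped, can therefore not be read from the counts, and both levels are uncertain.

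**Figure D1:**
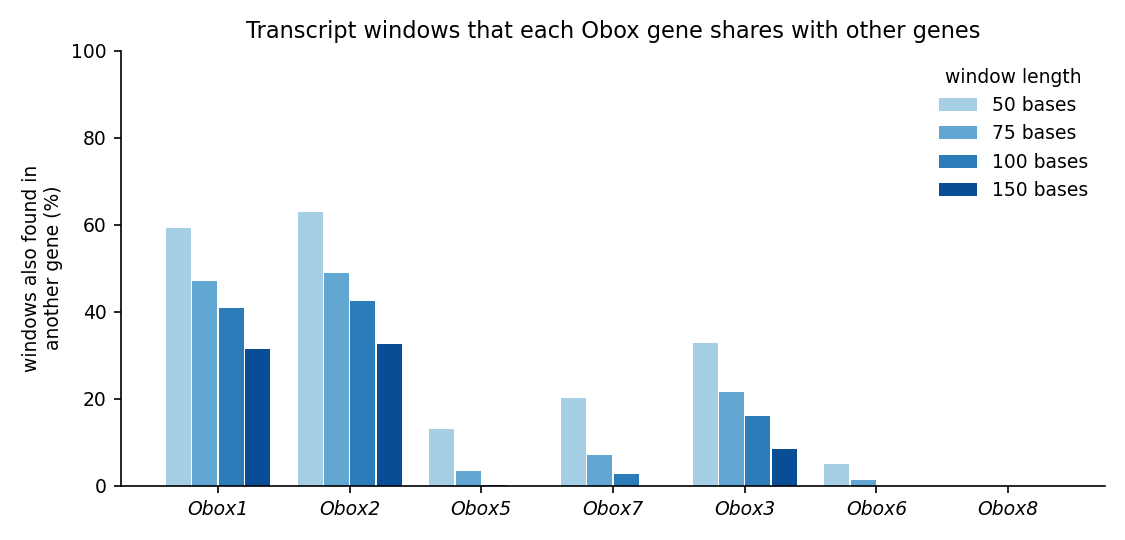
Percentage of windows of each Obox transcript (y axis) that also occur in the transcripts of another gene, for windows of 50, 75, 100 and 150 bases (bars, light to dark). Obox1 and Obox2 stay above 30% at every length, from 59.3% and 63.0% at 50 bases to 31.4% and 32.7% at 150 bases, while Obox5 and Obox7 fall to 0% at 150 bases.

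Library totals lay between 418703 and 2201980 reads, and no library was a copy of another of its group within counting noise. Libraries of different groups were not compared in this way. The 10 oocyte marker genes, among them Zp3 and Gdf9, had reads in every group. Across the 45 libraries, 11 genes on 10 chromosomes, none of them chromosome 7, fell into a high and a low set. The sets lay at least 3 log2 units apart, with at least 2 libraries in each, and no limit was set on the low level. They are called all-or-nothing genes here. These 11 genes divide the 45 libraries into 10 patterns, numbered here 1 to 10. Each group holds 2 to 4 of the patterns. The labels do not say what the patterns are, so the members' values are given by pattern below. Each group has its own library numbers, so a difference that goes with the numbers cannot be told apart from one between groups. The labels do not say what the numbers stand for. In YY they fall into 2 runs, S198 to S202 (n = 5) and S225 to S231 (n = 6), and values are given for each where they touch a result. The numbers of both control groups also have gaps, and those groups were not split.

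Levels are given in CPM, reads of a gene scaled to a common library size, after TMM scaling, a correction for library make-up. By mean CPM over 45 libraries Obox2 ranked 36, Obox1 51, Obox5 61 and Obox7 807 among the 21833 protein-coding genes. The 4 together took a mean of 0.557% ± 0.0812 of all reads of an oocyte (SD, n = 45). Divided by transcript length, the mean level over 45 oocytes was 1447 ± 353 CPM per kb for Obox2, 1112 ± 155 for Obox1, 851 ± 115 for Obox5 and 150.4 ± 44.8 for Obox7 (SD). On this scale the spreads of Obox2 and Obox1 overlapped, as did those of Obox1 and Obox5, and Obox7 lay below all 3.

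Obox2, the most abundant maternal member, had 2067 ± 402 CPM in YY (SD, n = 11; lowest 1557, median 1982, highest 2811). In AY it had 2282 ± 156 CPM (n = 6; 2019, 2291 and 2468) and in AA 2452 ± 669 CPM (n = 12; 1529, 2574 and 3318). In vivo young oocytes had 1998 ± 338 CPM (n = 8; 1329, 2078 and 2433) and in vitro young oocytes 1641 ± 322 CPM (n = 8; 1282, 1504 and 2280.4). AA had the widest range, and its lowest 4 oocytes lay beneath every AY oocyte.

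Obox1, whose transcript shares most with that of Obox2, varied less. It had 1742 ± 189 CPM in YY (SD, n = 11; range 1428 to 1956), 1629.5 ± 185 in AY (n = 6; 1381 to 1841) and 1731 ± 230.6 in AA (n = 12; 1299 to 2107). In vivo young oocytes had 1818 ± 233 CPM (n = 8; 1383 to 2061) and in vitro young oocytes 1428 ± 153 CPM (n = 8; 1152 to 1568). The cultured young oocytes were the lowest group, and all 8 lay below the in vivo median.

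Obox5, another maternal member, had 1648 ± 130.4 CPM in YY (SD, n = 11; range 1486 to 1849.7), 1535 ± 246 in AY (n = 6; 1224 to 1911) and 1498 ± 204 in AA (n = 12; 1219 to 1809). In vivo young oocytes had 1704 ± 201.2 CPM (n = 8; 1394 to 1985) and in vitro young oocytes 1394 ± 176 CPM (n = 8; 1189.6 to 1754). Again the cultured young oocytes had the lowest mean.

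Obox7 was the scarcest of the detected members. It had 250.5 ± 59.9 CPM in YY (SD, n = 11; lowest 161, median 258, highest 362), 203 ± 35.1 in AY (n = 6; 171, 188 and 260.1) and 189 ± 55.4 in AA (n = 12; 110.5, 179.9 and 315). In vivo young oocytes had 251 ± 98.0 CPM (n = 8; 123, 257 and 398) and in vitro young oocytes 217 ± 50.6 CPM (n = 8; 124, 214 and 289). Here AA had the lowest mean, and every pair of groups overlapped.

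**Figure D2:**
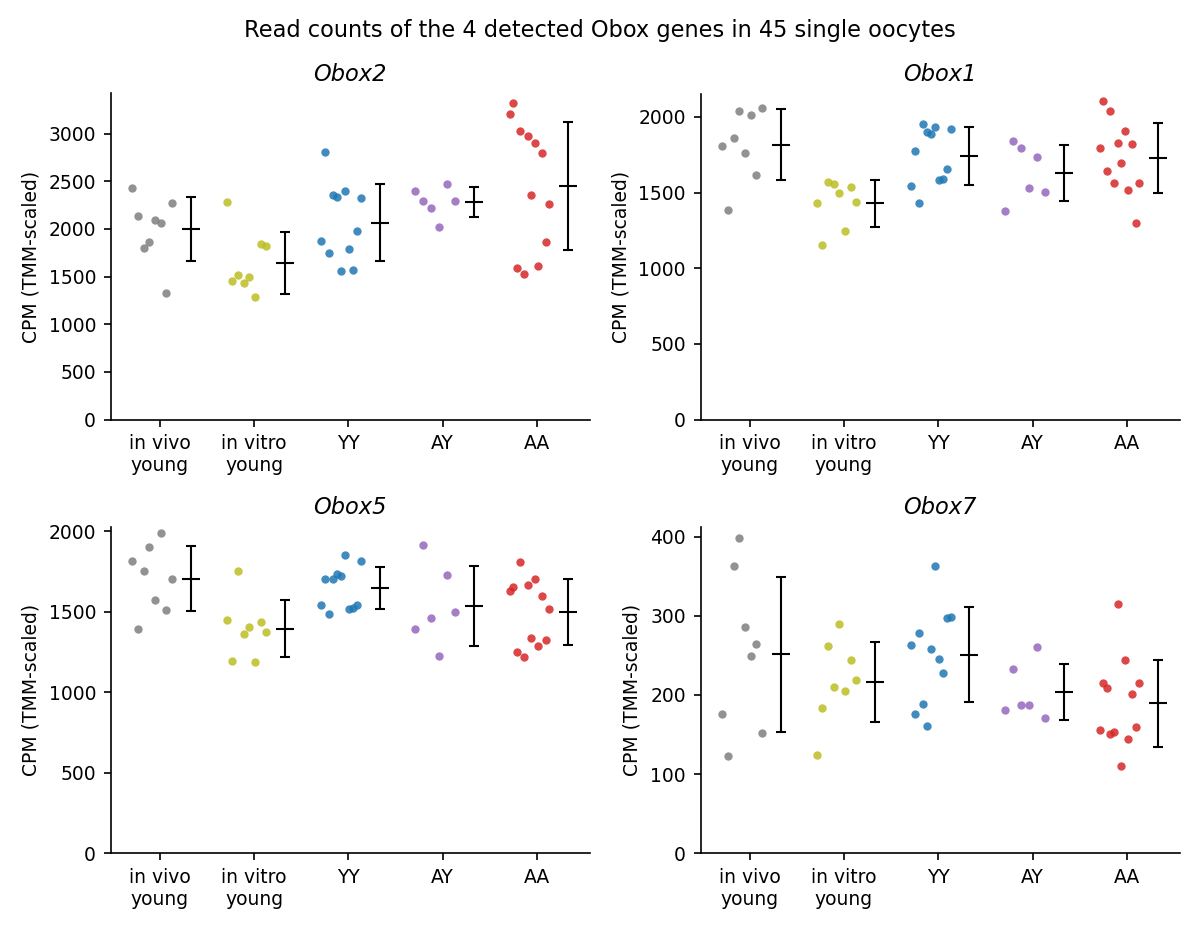
TMM-scaled CPM (y axis, from 0, with its own scale for each gene) of Obox2, Obox1, Obox5 and Obox7 in each oocyte (points) of the 5 groups (x axis), with the mean and SD of each group beside its points. Obox2 spreads from 1529 to 3318 CPM in AA, and Obox7 has its lowest mean, 189 CPM, in AA.

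Obox3, known from the embryo, Obox6 and Obox8 were at the limit of detection. Obox3 had 8 reads in all, from 7 of 45 libraries, and Obox6 had 16 reads from 10 libraries. Obox8 had 2 reads, 1 each in 2 libraries. The total behind these counts was 41929428 reads, at which a count of 0 allows a level of up to 0.0715 CPM (3 reads, counting error only). Pooled over all libraries, Obox3 came to 0.191 CPM, Obox6 to 0.382 CPM and Obox8 to 0.0477 CPM. By group, Obox6 had 0 reads in the in vivo young oocytes, which allows up to 0.334 CPM, and 3 to 5 reads in each other group. None of these 3 genes passed the filter on low counts in either fit, so no difference was tested. With so few reads, an order between groups was not detectable at this depth. Since Obox3 shares windows with other genes, its reads may not be its own.

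The table also lists 48 Obox rows that are not protein-coding, 39 named for Obox4, 8 for Obox3 and 1 for Obox6. Of these, 46 lie within the gene cluster, and 33 had no read in any library. A single row was well expressed, Obox3-ps8, a processed pseudogene on chromosome 17 (36763186 to 36764146) that had reads in all 45 libraries. Its level was 16.8 ± 5.52 CPM in vivo (SD, n = 8), 10.4 ± 3.18 in vitro (n = 8), 15.8 ± 3.84 in YY (n = 11), 7.91 ± 3.12 in AY (n = 6) and 12.9 ± 4.27 in AA (n = 12). AY was lowest, with a log2 difference from YY of -0.98 ± 0.29 (SE), which did not pass (edgeR adjusted p = 0.0779). Obox4-ps3, on chromosome 7, reached a median of 1.39 unscaled CPM in AY on 20 reads over all libraries, and its median was 0 in every other group. The protein-coding genes around and between the Obox genes were almost silent: the sulfotransferase genes Sult2a6, Sult2a8 and Sult2a7 had 3, 8 and 22 reads over all 45 libraries, and the vomeronasal receptor gene Vmn1r90 and Crx, the next gene past Obox6, had none.

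The comparison of AA with YY asked what differed when both the oocyte and its somatic cells were aged. Obox7 was lower in AA, and the other 3 detected members did not pass the test. Of the 12 AA oocytes, 11 lay below the YY median of Obox7 and 6 below the lowest YY oocyte. The log2 change was -0.42 ± 0.14 (SE), or 0.75-fold with a 95% confidence interval from 0.617 to 0.912 (edgeR's quasi-likelihood test, Benjamini-Hochberg adjusted p = 0.0236). The call thus covered 1 of 4 tested members. Across the 8533 genes tested, 27.5% were called, and 14.7% were called as lower in AA, so 1 in 4 is near the background. Obox7 fell short of the threshold when YY replicate 7, its highest YY oocyte, was left out (adjusted p = 0.0534) and against the 5 YY oocytes S198 to S202 alone (-0.19, adjusted p = 0.623), whose mean was 213 ± 53.2 CPM beside 281 ± 48.8 CPM in the other 6. It also fell short with all 45 libraries in 1 fit (-0.41, adjusted p = 0.063) and with the libraries of each pattern summed (-0.41, adjusted p = 0.363). The same held in limma voom, without quality weights, with the libraries' pattern as a random block (-0.47, adjusted p = 0.0843).

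Obox2 had the highest mean in AA, at a log2 difference from YY of 0.24 ± 0.13 (95% interval -0.02 to 0.50, adjusted p = 0.159). Of the AA oocytes, 8 of 12 lay above the YY median and 5 above the highest YY oocyte, while 1 lay below the lowest. Obox5 differed by -0.14 ± 0.07 (adjusted p = 0.161), with 11 of 12 AA oocytes below the YY median. For Obox1 the estimate was -0.01 ± 0.07 (adjusted p = 0.922), and its 95% interval of 0.894-fold to 1.10-fold leaves room for only small differences in either direction.

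AY, the aged oocyte in young somatic cells, was set against both other chimeric groups. AY and AA differ in the age of the somatic cells, and AY and YY in the age of the oocyte. None of the 4 members passed against AA, where 6.59% of 8533 genes did. The log2 differences from AA were -0.11 ± 0.15 for Obox2, -0.09 ± 0.09 for Obox1, 0.03 ± 0.09 for Obox5 and 0.11 ± 0.17 for Obox7 (SE; edgeR adjusted p from 0.606 to 0.88). For Obox7 the 95% interval of 0.852-fold to 1.36-fold includes no change and also a difference as large as that between YY and AA. Against YY again none of the 4 was called, with 1.62% of all genes called. The estimates there were 0.14 ± 0.15 for Obox2, -0.10 ± 0.09 for Obox1, -0.11 ± 0.09 for Obox5 and -0.31 ± 0.17 for Obox7 (adjusted p from 0.419 to 0.752). Of the AY oocytes, 5 of 6 lay below the YY median of Obox7, and all 6 lay above the YY median of Obox2. In both of these comparisons no member reached an unadjusted p of 0.05 in edgeR, and DESeq2 and limma voom called none. Of all 8533 genes, 1869 reached that unadjusted p against AA and 1202 against YY. AA and AY were compared with the same YY oocytes, so their differences from YY are not independent.

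The controls bear on culture and on transfer into a follicle. In vitro young oocytes had lower mean levels of all 4 members than in vivo young oocytes: the log2 differences were -0.34 ± 0.09 for Obox1, -0.28 ± 0.09 for Obox5, -0.28 ± 0.12 for Obox2 and -0.20 ± 0.20 for Obox7 (SE). None was called by edgeR (adjusted p = 0.132, 0.187, 0.464 and 0.82), and 0.137% of 8749 genes were. In edgeR, Obox1, Obox5 and Obox2 had an unadjusted p under 0.05, a level that 844 of the 8749 genes reached. Obox1 ranked 44 by p among all genes. DESeq2 called Obox1 (adjusted p = 0.037), and limma voom called none. Of all 8749 genes, edgeR called 12, DESeq2 44 and limma voom 35. For Obox1, all 8 in vitro oocytes lay below the in vivo median and 2 below the lowest in vivo oocyte.

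YY oocytes, which were also cultured, had higher mean levels than in vitro young oocytes. The log2 differences were 0.28 ± 0.09 for Obox1, 0.24 ± 0.08 for Obox5, 0.33 ± 0.12 for Obox2 and 0.21 ± 0.19 for Obox7 (SE). No member passed in edgeR (adjusted p = 0.0627, 0.0988, 0.114 and 0.625), while 2.48% of 8749 genes did. In edgeR, Obox1, Obox5 and Obox2 again had an unadjusted p under 0.05, a level that 1455 of the 8749 genes reached. DESeq2 and limma voom each called 2 members, Obox1 and Obox5, so the outcome turned on the tool. These tools also called more of all 8749 genes than the 217 of edgeR, 404 with DESeq2 and 558 with limma voom. Of the 11 YY oocytes, 10 lay above the in vitro median of Obox1 and 9 above the highest in vitro oocyte. Both of these comparisons use the same in vitro oocytes.

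**Figure D3:**
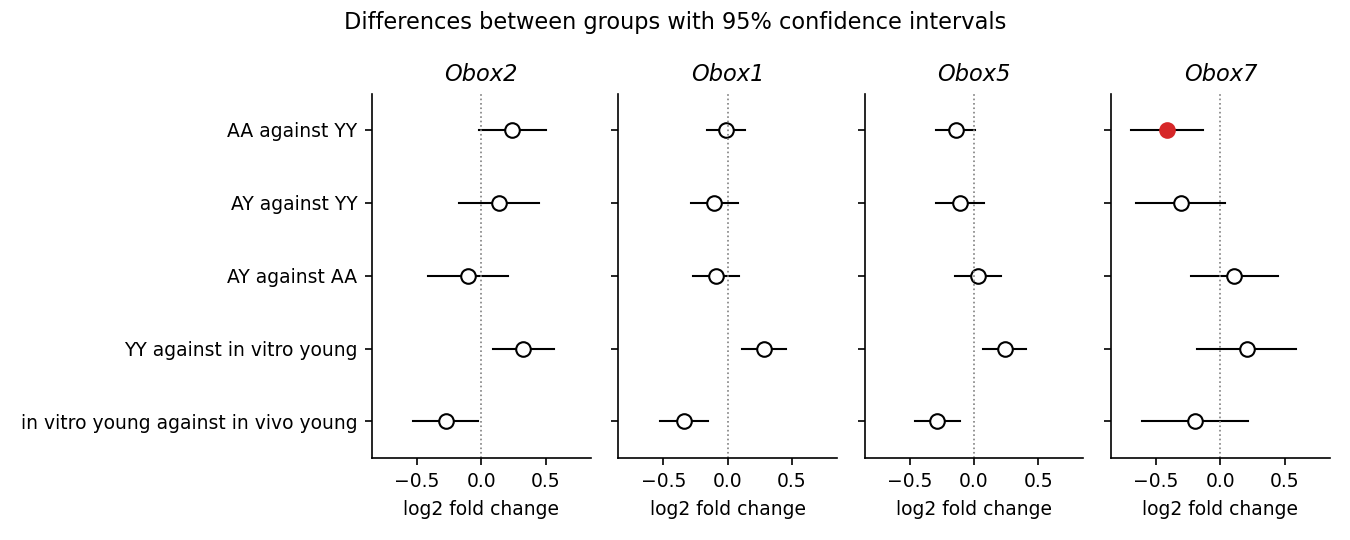
Log2 fold change (x axis) of Obox2, Obox1, Obox5 and Obox7 in each of the 5 comparisons (y axis), with edgeR's estimate as a point and its 95% confidence interval as a line. A filled red point marks an adjusted p under 0.05, which Obox7 alone reached, at -0.42 in AA against YY.

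Obox2 took a larger mean share of the Obox reads in the groups of aged oocytes. As a share of the reads of the 4 detected genes, Obox2 took 36.0% ± 3.69 in YY (SD, n = 11), 40.5% ± 2.80 in AY (n = 6) and 41.1% ± 4.41 in AA (n = 12). Obox5 took 28.99% ± 1.57, 27.04% ± 2.04 and 25.8% ± 1.82 in the same groups, and Obox7 4.45% ± 1.12, 3.59% ± 0.390 and 3.26% ± 0.841. Obox1 took 30.6% ± 1.94, 28.9% ± 2.19 and 29.8% ± 2.99. In vivo and in vitro young oocytes had Obox2 shares of 34.6% ± 4.90 and 34.9% ± 4.37 (n = 8 each), so the 3 young groups had the lower means and the 2 aged groups the higher. Single oocytes overlapped, with shares of 33.9% to 47.2% in AA and 28.7% to 43.5% in YY. Patterns 2 and 6 occurred only in AA, and patterns 1 and 9 only in AY. A difference between aged and young oocytes can therefore not be told apart from one between patterns.

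**Figure D4:**
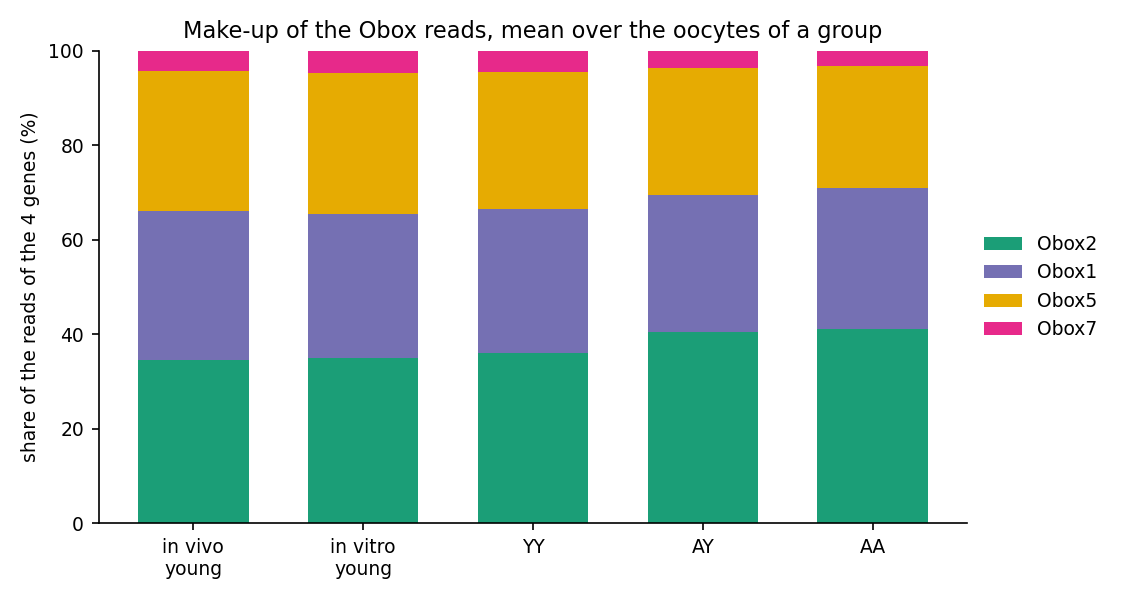
Mean share (y axis, percent) of Obox2, Obox1, Obox5 and Obox7 in the reads of these 4 genes, stacked to 100%, for the 5 groups (x axis). Obox2 takes 36.0% in YY, 40.5% in AY and 41.1% in AA.

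A ratio of 2 genes within a library needs no scaling between libraries, so the log2 ratios of the 6 gene pairs were tested in the 5 comparisons, 30 tests chosen after the values were seen. The ratio of Obox2 to Obox5 was higher in AA, with a mean log2 of 0.67 ± 0.25 (SD, n = 12), than in YY, with 0.31 ± 0.23 (n = 11). The difference was 0.36 (two-sided permutation test with 100000 resamples, p = 0.00142, Benjamini-Hochberg adjusted over the 30 tests 0.0426). None of the other 29 passed. In AA against YY, Obox2 to Obox7 differed by 0.64 and Obox1 to Obox5 by 0.13, both at an adjusted p of 0.0792. In AY against YY, Obox2 to Obox5 differed by 0.28 (exact permutation test, p = 0.0176, adjusted 0.132). With 1 oocyte left out at a time the difference stayed between 0.32 and 0.40, while the adjusted p lay between 0.015 and 0.0792 and 19 of the 23 omissions raised it above the threshold of 0.05. The unadjusted p of the permutation test lay between 0.0005 and 0.00344. Here and below, only this ratio's p was recomputed, and the other 29 were kept from all oocytes. The upper value of 0.0792 was therefore set by the neighbouring tests. Against YY S198 to S202 alone the difference was 0.24 (exact permutation test, adjusted p = 0.255) and against YY S225 to S231 alone 0.46 (exact permutation test, adjusted p = 0.0646). The AA oocytes were not alike: the 9 of pattern 2 had means of 2744 CPM of Obox2 and 1581 CPM of Obox5. The 3 of pattern 6 had 1577.5 and 1251 CPM. The permutation test treated all oocytes as independent, and the ratio was not tested by pattern.

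Within AA, AY and the in vivo young oocytes, the balance of Obox2 and Obox1 went with the pattern of the 11 all-or-nothing genes, although no Obox gene is among them. Within YY and the in vitro young oocytes the ranges of some patterns overlapped, as given below. The patterns followed the library numbers in part. In YY, patterns 3 and 5 held only S198 to S202, and patterns 8 and 10 only S225 to S231. In vivo young pattern 5 was replicates 1 and 2, whose library numbers lie apart from the others of that group. Across those runs, pattern and library number cannot be told apart, for this ratio or for Obox7. In AA, 9 oocytes had pattern 2 and between 1.39 and 1.78 Obox2 reads per Obox1 read, whereas the 3 oocytes of pattern 6 (replicates 3, 5 and 9) had 0.968 to 1.06. These same 3 oocytes had 1529 to 1615 CPM of Obox2, below all 9 others, which had 1864 to 3318 CPM. In AY, 4 oocytes of pattern 1 had ratios of 1.24 to 1.42 and 2 oocytes of pattern 9 had 1.53 to 1.74. In neither AA nor AY did the ranges of the patterns overlap.

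Patterns that recurred in several groups had similar ratios in each, with pattern 5 the most variable. Pattern 7 had 0.821 to 1.02 Obox2 reads per Obox1 read in 4 in vivo young oocytes and 0.921 to 1.03 in 4 in vitro young oocytes. Pattern 4 had 1.10 to 1.19 in 2 in vivo young oocytes and 1.20 to 1.27 in 2 in vitro young oocytes. Pattern 5 had 1.35 to 1.54 in 2 in vivo young oocytes, 1.60 in 1 in vitro young oocyte and 1.23 to 1.58 in 2 YY oocytes. Its 5 oocytes were also low in Obox7, at 123 to 176 CPM, beside 205 to 398 CPM in the 8 oocytes of pattern 7. Levels as low also occurred in other patterns, with 171 to 180 CPM in pattern 9, 144 to 209 in pattern 6, 152 to 285 in pattern 4 and 110.5 to 315 in pattern 2. In YY, patterns 3 and 10 had ratios of 1.20 to 1.22 and 1.13 to 1.24 and overlapped, and the 2 oocytes of pattern 8 had the lowest ratios, 0.824 and 0.984. The YY range of pattern 5 also overlapped that of pattern 10. Pattern 3 recurred in 1 in vitro young oocyte, at a ratio of 1.26. That ratio lay above those of pattern 3 in YY and within the range of pattern 4 in vitro. No test was made of these sets, which come from the data and not from the labels. Obox1 and Obox2 share long stretches, so a ratio of their reads depends on how shared reads were assigned in each library.

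**Figure D5:**
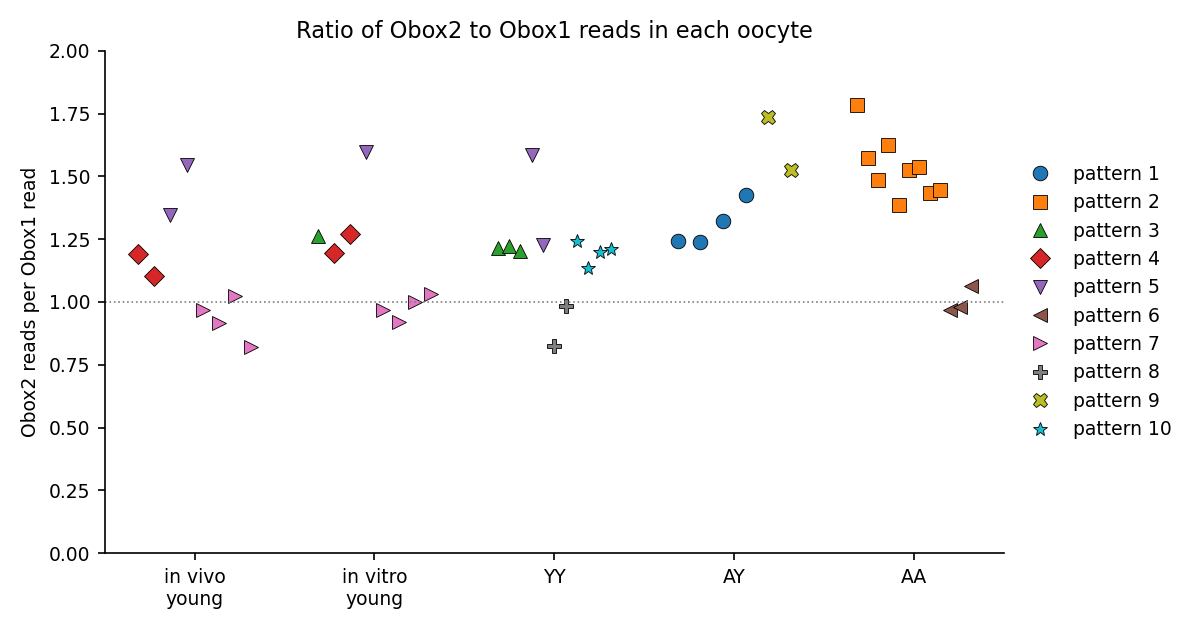
Obox2 reads per Obox1 read (y axis, from 0) in each of 45 oocytes in the 5 groups (x axis), with colour and shape for the pattern of 11 all-or-nothing genes. In AA the 9 oocytes of pattern 2 lie between 1.39 and 1.78 and the 3 of pattern 6 between 0.968 and 1.06.

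How the members varied together was described over the 45 oocytes after each group's mean had been taken off. Spearman's rho was 0.81 between Obox1 and Obox5, 0.64 between Obox2 and Obox5 and 0.54 between Obox2 and Obox1. Obox7 followed the others less, with 0.38 for Obox5, 0.28 for Obox1 and -0.08 for Obox2. These correlations share libraries, depth and, for near-copies, reads. Among the genes outside the family most like Obox2 were Psg17 (0.68), a pregnancy-specific glycoprotein gene, Bcl2l10 (0.63), an oocyte member of the Bcl2 family, Apoe (0.59), which carries lipids, and Rpl17 (0.57), a ribosomal protein gene. The median rho with Obox2 over 8021 genes was -0.01.

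Homeobox genes outside the family were taken from a list. Of 74 listed, 72 were in the table and 21 passed the filter in the chimeric groups. In AA against YY, 1 of the 21 was higher and 6 were lower (12.8% and 14.7% of all genes), with a median log2 change of -0.08 beside -0.01 for all genes. Satb1, a chromatin organiser, rose by 0.34 ± 0.11 (SE, edgeR adjusted p = 0.0153). Pou5f1, the pluripotency factor Oct4, fell by 0.86 ± 0.26 on the log2 scale (adjusted p = 0.0093), and Cux1, a CUT-domain factor, fell by 0.77 ± 0.21 (adjusted p = 0.00426). In AY against AA, 2 were higher and none lower (3.52% and 3.07% of all genes): Otx1, a relative of Crx, rose by 1.85 ± 0.33 (adjusted p = 0.000945) and Lhx8, an oocyte LIM-homeobox factor, by 0.39 ± 0.11 (adjusted p = 0.0237). In AY against YY none of the 21 was called. Of 22 tested between YY and in vitro young oocytes, Pou5f1 alone was called, higher in YY by 0.90 ± 0.26 (adjusted p = 0.0498; 0.777% of all genes were called higher and 1.7% lower), and between the 2 control groups none was.

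The second list held 36 maternal and early zygotic factors of genome activation, the process in which Obox factors act, and 26 of them were tested in the chimeric groups. In AA against YY, 4 were higher and 12 lower (12.8% and 14.7% of all genes), with a median log2 change of -0.30 beside -0.01 for all genes. Nfya, a subunit of the CCAAT-binding factor NF-Y, rose by 0.95 ± 0.11 (SE, adjusted p = 1.99e-07) and Klf17, a zinc finger factor stored in the oocyte, by 0.51 ± 0.13 (adjusted p = 0.00388). Tet3, which oxidises methylated cytosine, fell by 1.04 ± 0.12 on the log2 scale (adjusted p = 1.89e-07), and Yap1, a coactivator of the Hippo pathway, fell by 1.12 ± 0.21 (adjusted p = 8.75e-05). In AY against AA, 3 of the 26 were higher and 1 lower (3.52% and 3.07% of all genes): Tet3 rose by 0.67 ± 0.14 (adjusted p = 0.0035) and Sp1, a general promoter factor, by 1.05 ± 0.30 (adjusted p = 0.0305), and Nfya fell by 0.85 ± 0.14 (adjusted p = 0.00022). In AY against YY none was called. Between YY and in vitro young oocytes, where 0.777% of all genes were called higher and 1.7% lower, 1 of 27 was higher, Nelfa (0.42 ± 0.11, adjusted p = 0.0291), a subunit of a pausing factor of RNA polymerase II, and 1 was lower, Dppa4 (-1.24 ± 0.31, adjusted p = 0.0215), a chromatin protein of early embryos. Between the controls none was called.

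Transcripts listed as markers of the follicle's somatic cells also differed between groups. Of 13 granulosa and cumulus markers, 4 passed the filter in the chimeric groups; 3 were higher in AA than in YY (12.8% of all genes), among them Inha (2.78 ± 0.49, SE, adjusted p = 0.000128) and Inhba (1.99 ± 0.47, adjusted p = 0.00133), both inhibin or activin subunits. In AY against YY, where 0.715% of all genes were called higher, 2 were, Serpine2 (0.76 ± 0.14, adjusted p = 0.00261) and Inha (2.63 ± 0.55, adjusted p = 0.00969). The summed level of the 13 ranged from 487 to 783 CPM in YY, from 791 to 1363 in AY and from 625.2 to 1146 in AA. Amh and Ptx3 were at 0 in all 3 groups, Has2 also in YY and AY, and Foxl2 also in YY. In the controls the sum ranged from 393 to 903 CPM in vivo and from 517 to 995 CPM in vitro. Amh, Foxl2, Has2 and Ptx3 were at 0 in both control groups. Whether the transcripts came from somatic cells or from the oocyte itself was not tested. Theca and stroma markers summed to at most 9.74 CPM and immune markers to at most 6.74 CPM in any chimeric-group oocyte, and no gene of either list was tested. Endothelium and blood markers summed to 29.3 to 126 CPM there, and the 1 gene tested was not called. Of the 10 oocyte markers, Dppa3 alone was called in AA against YY (0.22 ± 0.08, adjusted p = 0.03; 27.5% of all genes were called) and Zar1 alone in AY against AA (1.13 ± 0.35, adjusted p = 0.0462; 6.59% of all genes). In YY against in vitro young oocytes 3 of the 10 oocyte markers were lower (1.7% of all genes), among them Gdf9 (-0.60 ± 0.11, adjusted p = 0.00195) and Padi6 (-0.84 ± 0.17, adjusted p = 0.00659). The part of these markers in the Obox differences was not tested.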

How the data were processed

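Each of the 45 libraries holds 1 oocyte. Per the labels' protocols, a low-input kit from NEB amplified the cDNA by PCR, and no molecular identifiers are named. The authors deposited whole-number read counts per gene, not normalized. STAR 2.7.8a and HTSeq 0.11.0 are listed beside the build mm39, per the submitters' processing notes. Totals of 418703 to 2201980 counts limit what can be said of genes with few reads. Strand use and shared reads are not given in the sources used here.

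Counts were fitted across all genes with edgeR 4.0.16 (R 4.3.3, TMM, filterByExpr with a minimum count of 10 and a minimum total of 15, robust quasi-likelihood test, Benjamini-Hochberg, threshold 0.05), with AA, AY and YY in 1 fit of 29 libraries and YY with the controls in another of 27. Standard errors come from the F statistic. The fits were tested on simulated data with libraries drawn independently of each other. Of 1.5-fold changes, 26.7% (AY against YY) to 45.5% (AA against YY) were called, and of 2-fold changes 69.0% to 85.3%. These shares are over genes of all levels and were not worked out for the Obox genes alone. DESeq2 1.42.0, limma 3.58.1 (voom), RLE scaling, other filters, other sets of libraries, a replicate block and each library left out in turn were the alternatives. The use of the patterns and the tests of ratios were added after seeing the data. Correlations used log2 CPM with a prior count of 2.

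The members and gene lists were chosen with earlier results of these data known. The rule named every protein-coding Obox gene, other Obox rows with a median of at least 1 CPM in a group, up to 2 called genes per list, direction and comparison (smallest p first), the 5 genes most like Obox2, and the protein-coding genes beside or within the cluster. Of the 5 genes most like Obox2, 1 is not reported here. Sequences come from RefSeq (GRCm38.p6) and GENCODE M21 (GRCm38), and coordinates of genes from the deposited table (mm39). No sequence was read by coordinates across builds.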

Additional observations from a re-analysis of the deposited data

Results flagged for a closer look

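In 22 sets of 6 or 8 oocytes of 1 gene and group, the highest or lowest oocyte was compared with the rest. Chance alone sets an oocyte apart in about 1 in 20 such sets where values are continuous and normally distributed. That rate does not hold for genes with almost no reads. There, 1 oocyte with reads among oocytes at 0 is always set apart. The number of flagged sets can therefore not be compared with that rate. Obox5 in in vitro young replicate 3 stood above the other 7 oocytes of its group, at 1754 CPM (1632 reads) with the next at 1445 CPM. The other cases were single reads or a few of barely detected genes. Obox3 had 0.979 CPM in in vivo young replicate 1 and 0.884 CPM in AY replicate 1, each from 1 read, and 1.80 CPM in in vitro young replicate 8 from 2 reads. Obox8 had 0.80 CPM in in vivo young replicate 4 and 0.899 CPM in in vitro young replicate 8, each from 1 read. Obox6 had 5.18 CPM in AY replicate 2, from 4 reads, with 0 in the other 5 AY oocytes.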

How the results depend on the processing

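Obox7 stayed called in AA against YY with RLE scaling, DESeq2, limma voom, either other filter on low counts, genes detected per library as a covariate, mitochondrial or Obox genes left out of the scaling, only the 2 groups compared, and YY S225 to S231 alone. With YY S225 to S231 alone, 3151 of 8260 genes were called. The other settings called from 1794 of 5160 genes (minimum count 30) to 2495 of 24271 (no filter). The count of called members fell from 1 to 0 with all 45 libraries in 1 fit (Obox7 -0.41, adjusted p = 0.063), against YY S198 to S202 alone, with the pattern as a random block (correlation 0.182) and with the libraries of a pattern summed (-0.41, adjusted p = 0.363). The fit with the block used limma voom without quality weights, which was not run without the block. With 1 library left out it was 0 (without YY replicate 7) to 1, and Obox7 ranged from -0.51 to -0.35. In YY against in vitro young oocytes, where edgeR called 0 members, DESeq2 and limma voom called 2 each, and 1 (Obox1) was called with a minimum count of 30, with all 45 libraries in 1 fit and with YY S225 to S231 alone. Over all genes, DESeq2 called 404 and limma voom 558 of 8749. The other settings, in that order, called 255 of 5509, 378 of 9162 and 803 of 8925. Leaving out 1 library gave 0 to 2: Obox1 and Obox5 without in vitro young replicate 3, Obox2 without in vitro young replicate 1, and Obox1 without YY replicate 1 or 3 or in vivo young replicate 2 or 6. Over all genes, these fits called from 203 of 8831 (without in vitro young replicate 1) to 352 of 8901 (without in vitro young replicate 3). In in vitro against in vivo young oocytes DESeq2 gave 1 instead of 0 (44 of all 8749 genes called), and no left-out library changed the 0. The counts of 0 for AY held in all alternatives. Signs turned only in estimates that were not called: Obox1 in AA against YY (0.0217 with no filter, 0.000257 with YY S198 to S202 alone, -0.0406 to 0.0225 with 1 library left out), Obox2 in AY against AA (0.0796 with the pattern as a random block, 0.10 with patterns summed), Obox7 in YY against in vitro young (-0.022 with YY S198 to S202 alone) and Obox5 in AY against AA (-0.0341 to 0.0897 with 1 library left out). The cause of these changes was not tested. The number of all genes called moved with the same settings. In AA against YY it was 2348 in the main fit, 2383 with all 45 libraries and 3151 with YY S225 to S231 alone. It was 451 with YY S198 to S202 alone, 1103 with the pattern as a block in limma voom and 2 with patterns summed.

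With a block for the replicate number, Obox7 in AA against YY stayed called (-0.45, adjusted p = 0.0461), and the counts of called members were 1, 0, 0, 0 and 0, as without it. The genes called went from 562 to 1078 in AY against AA, from 217 to 115 in YY against in vitro young and from 12 to 6 between the controls. Oocytes of the same number deviated together little (median correlation from -0.01 to 0.08 over the comparisons, with negative pairs in each). For oocytes of unlike numbers the medians lay between -0.01 and 0.03. The best match was the own number for 3 of 6 pairs in AY against YY, 2 of 11 in AA against YY and 1 of 6 in AY against AA. It was so for 1 of 8 pairs in YY against in vitro young and 2 of 8 between the controls. With so few pairs, the check cannot exclude that the numbers pair some oocytes. At these depths the levels of Obox3, Obox6 and Obox8 could not be compared between groups.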
